A study of Homo sapiens with 20 samples.

Results

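The 10 genes described here encode chaperones and proteases of the mitochondrion. They are HSPA9, DNAJA3, HSPD1, HSPE1 and TRAP1, which help proteins to fold, and LONP1, CLPX, CLPP, YME1L1 and AFG3L2, which unfold or degrade them. They were chosen by name for their function, with earlier results of these data known. Each was found by Ensembl identifier among the 57500 genes listed in each library. In unwounded keratinocytes, HSPA9, LONP1, DNAJA3, HSPD1 and YME1L1 were higher in cells that lack GCN2, and TRAP1 and AFG3L2 were lower. After wounding, HSPA9 rose 1.6-fold and LONP1 1.7-fold in WT cells, and in GCN2KO cells neither passed the test.

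Most mitochondrial proteins are made in the cytosol and enter the organelle unfolded through channels in its outer and inner membranes. HSPA9 pulls them into the matrix, the chaperonin of HSPD1 and HSPE1 folds them, and ATP-dependent proteases remove those that fail to fold. When unfolded protein builds up in the matrix, cells can raise the mRNAs of these chaperones and proteases, a program called the mitochondrial unfolded protein response (UPRmt), which in mammals has been linked to the transcription factors ATF4, ATF5 and CHOP (DDIT3). GCN2 is a kinase that phosphorylates eIF2α, which lowers overall protein synthesis and favours translation of ATF4 in the integrated stress response (ISR).

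RNA was sequenced from 20 cultures of NTERT cells, human keratinocytes immortalized with hTERT, in 4 groups of 5. WT cells carried a control guide RNA, and GCN2KO cells were early-passage pooled cells edited with CRISPR in EIF2AK4, the gene of GCN2. Cultures of each genotype were left unwounded or underwent high-density wounding (HDW), in which pipet tips cut many crossing wounds into the monolayer, and RNA was taken 6 h later. All cultures had been induced to differentiate with calcium and serum before that step. The sources used here do not say how many edited pools were sequenced or which guide was used. Genotype and the history of a pool therefore cannot be told apart. Nothing in these sources says that the 5 replicates of a group began from separate batches of cells. p-values therefore measure the spread between these cultures. In bulk RNA, fewer cells of a type and less RNA per cell cannot be told apart.

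The libraries held 14083504 to 34611570 counts on genes. Normalized read counts, which are counts scaled to a common library size, are used for each gene below. WT cells held 4355 ± 149 (SD, n = 5) of EIF2AK4 unwounded and 4194 ± 129 (SD, n = 5) after HDW, and GCN2KO cells held 894 ± 61.8 (SD, n = 5) and 874 ± 66.5 (SD, n = 5). All 10 GCN2KO libraries lay below all 10 WT libraries. The 8 keratinocyte markers (KRT5, KRT14, TP63, ITGB4, DSG3, IVL, KRT1 and KRT10) were detected in every group and summed to 379600 to 524700 normalized read counts per library. Summed levels were 669 to 1043 for 7 fibroblast markers and at most 18.2 for 3 endothelial markers. The 5 immune markers summed to 37.6 to 76.8 in WT and 73.9 to 116 in GCN2KO libraries, nearly all of it CD68, with CD207 and CD1A at 0. The 5 melanocyte markers summed to 130 to 209 in WT and 346 to 642 in GCN2KO libraries, with TYR at 0 throughout and MITF at a mean of 338.5 in unwounded and 475.6 in wounded GCN2KO cells. The part of these markers in the differences between genotypes was not tested.

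Promoter sequences are shown for the 4 members that changed most and for the pair HSPD1 and HSPE1, because the RefSeq starts of the latter are head to head. The sequences are from RefSeq (GRCh38.p14) and run 5′ to 3′ on the strand of the gene, from 250 bases before an annotated start to 50 after it. RefSeq windows were matched for 8 of the 10 members, 10 windows in all, and none was matched for CLPP and YME1L1. Capitals mark 5 searched motifs on either strand, which are pairs of heat shock units (GAANNTTC or TTCNNGAA), the cAMP response element (TGACGTCA), the core bound by NRF1 (GCGCATGCG) and the CCAAT box.
HSPA9 (chr5:138575352-138575651, minus strand): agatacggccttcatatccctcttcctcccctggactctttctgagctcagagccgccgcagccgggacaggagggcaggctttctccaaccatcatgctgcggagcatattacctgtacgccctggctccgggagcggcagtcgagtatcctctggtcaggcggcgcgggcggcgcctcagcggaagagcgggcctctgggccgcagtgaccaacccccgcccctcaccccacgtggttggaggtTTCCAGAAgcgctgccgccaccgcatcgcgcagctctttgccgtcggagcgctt
DNAJA3 (chr16:4425618-4425917, plus strand): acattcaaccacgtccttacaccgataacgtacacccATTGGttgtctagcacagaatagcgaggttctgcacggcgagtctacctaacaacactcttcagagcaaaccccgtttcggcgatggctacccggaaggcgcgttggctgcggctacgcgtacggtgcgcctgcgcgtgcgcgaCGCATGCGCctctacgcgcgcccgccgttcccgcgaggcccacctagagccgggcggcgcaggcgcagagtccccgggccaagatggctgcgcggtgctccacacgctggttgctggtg
HSPD1 (chr2:197499791-197500090, minus strand): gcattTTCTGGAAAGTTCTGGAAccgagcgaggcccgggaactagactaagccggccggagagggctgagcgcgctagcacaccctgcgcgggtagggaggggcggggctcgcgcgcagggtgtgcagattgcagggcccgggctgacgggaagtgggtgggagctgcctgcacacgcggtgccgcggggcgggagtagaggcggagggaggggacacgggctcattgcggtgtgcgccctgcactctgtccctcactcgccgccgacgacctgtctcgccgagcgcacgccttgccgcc
HSPE1 (chr2:197500129-197500428, plus strand): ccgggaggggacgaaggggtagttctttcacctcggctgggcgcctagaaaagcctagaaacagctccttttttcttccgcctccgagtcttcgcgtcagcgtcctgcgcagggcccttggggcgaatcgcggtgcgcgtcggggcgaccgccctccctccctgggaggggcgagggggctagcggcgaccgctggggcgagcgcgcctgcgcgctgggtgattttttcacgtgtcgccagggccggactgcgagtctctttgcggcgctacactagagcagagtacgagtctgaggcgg
TRAP1 (chr16:3717475-3717774, minus strand): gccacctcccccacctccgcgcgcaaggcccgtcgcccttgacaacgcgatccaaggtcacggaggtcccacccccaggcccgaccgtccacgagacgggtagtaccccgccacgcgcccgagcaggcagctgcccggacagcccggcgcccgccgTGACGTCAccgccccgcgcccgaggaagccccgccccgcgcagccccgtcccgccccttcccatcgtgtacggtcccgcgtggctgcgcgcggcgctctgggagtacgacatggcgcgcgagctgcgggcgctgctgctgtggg
LONP1 (chr19:5720403-5720702, minus strand): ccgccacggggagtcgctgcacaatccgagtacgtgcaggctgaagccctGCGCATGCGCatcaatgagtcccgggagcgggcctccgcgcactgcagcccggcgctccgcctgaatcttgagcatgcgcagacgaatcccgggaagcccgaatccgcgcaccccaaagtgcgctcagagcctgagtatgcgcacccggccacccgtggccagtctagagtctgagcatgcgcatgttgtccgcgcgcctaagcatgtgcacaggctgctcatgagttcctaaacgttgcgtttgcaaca

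The HSPA9 window holds TTCNNGAA across the start, and the HSPD1 window holds it at 2 places joined by an overlapping GAANNTTC, a run of heat shock units from position -245 to -228, counted from that start as 0. Among all 35116 windows, 7.74% hold TTCNNGAA and 6.77% hold GAANNTTC. The NRF1 core occurs in the shown LONP1 and DNAJA3 windows and in 1.92% of all windows. A further LONP1 window, at 5720097 to 5720396 and not shown, does not hold it. The further HSPD1 window, at 197500225 to 197500524 and not shown, holds no pair of heat shock units. For both genes the window shown is thus the one with a capitalized motif. Which start these cells use was not tested. TGACGTCA occurs in the TRAP1 window and in 1.85% of all. CCAAT occurs in the CLPX and DNAJA3 windows and in 34.6% of all, and the GC box GGGCGG, left in lower case, in 9 of the 10 member windows and in 45.0% of all. TGATGNAA, the core of the element bound by C/EBP and ATF factors, is in 3.62% of all windows and in none of these 10. A match describes the letters of a window and is not evidence of binding.

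HSPD1 on the minus strand of chromosome 2 spans 197486584 to 197516737 in GRCh38 (GENCODE 44), and HSPE1 on the plus strand, at 197500140 to 197503449, lies within that span. The RefSeq starts of the windows, at 197499840 or 197500274 for HSPD1 and 197500379 for HSPE1, point away from each other. The start of HSPE1 lies 539 bases from the HSPD1 start shown and 105 bases from a further annotated HSPD1 start, whose window shares 204 bases with that of HSPE1. HSPA9 lies on chromosome 5 at 138553756 to 138575675. On chromosome 16, TRAP1 lies at 3651639 to 3717553 and DNAJA3 at 4425805 to 4456775. On chromosome 19, LONP1 lies at 5691834 to 5720572 and CLPP at 6361531 to 6370242. CLPX lies on chromosome 15 at 65148219 to 65185342, YME1L1 on chromosome 10 at 27110111 to 27155266 and AFG3L2 on chromosome 18 at 12328944 to 12377227.

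Levels of different genes are compared per length, as CPM divided by the length of the merged exons in kilobases. In WT unwounded cells HSPD1 had the highest level, 57.1 ± 1.92 (SD, n = 5), followed by YME1L1 at 29.3 ± 1.00, HSPA9 at 26.9 ± 1.41 and HSPE1 at 24.2 ± 2.35. YME1L1 and HSPA9 overlapped in range, as did HSPA9 and HSPE1. LONP1 stood at 18.9 ± 1.57, CLPX at 14.9 ± 0.676 and TRAP1 at 14.9 ± 0.419, and the last pair overlapped. CLPP at 10.6 ± 0.729, DNAJA3 at 9.82 ± 0.223 and AFG3L2 at 8.96 ± 0.236 were the lowest, and CLPP and DNAJA3 overlapped. In GCN2KO unwounded cells HSPA9 reached 68.6 ± 0.703, second to HSPD1 at 74.6 ± 7.87, and their ranges overlapped. All 10 genes were well expressed, above 74.1% to 96.1% of 16387 genes by this measure in WT unwounded cells. The order depends on the length used. With the Ensembl canonical transcript, a length chosen after seeing the data, HSPD1 stood at 194 ± 6.52 in WT unwounded cells, HSPE1 next at 79.3 ± 7.69 and HSPA9 after it at 59.7 ± 3.12.

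**Figure D1:**
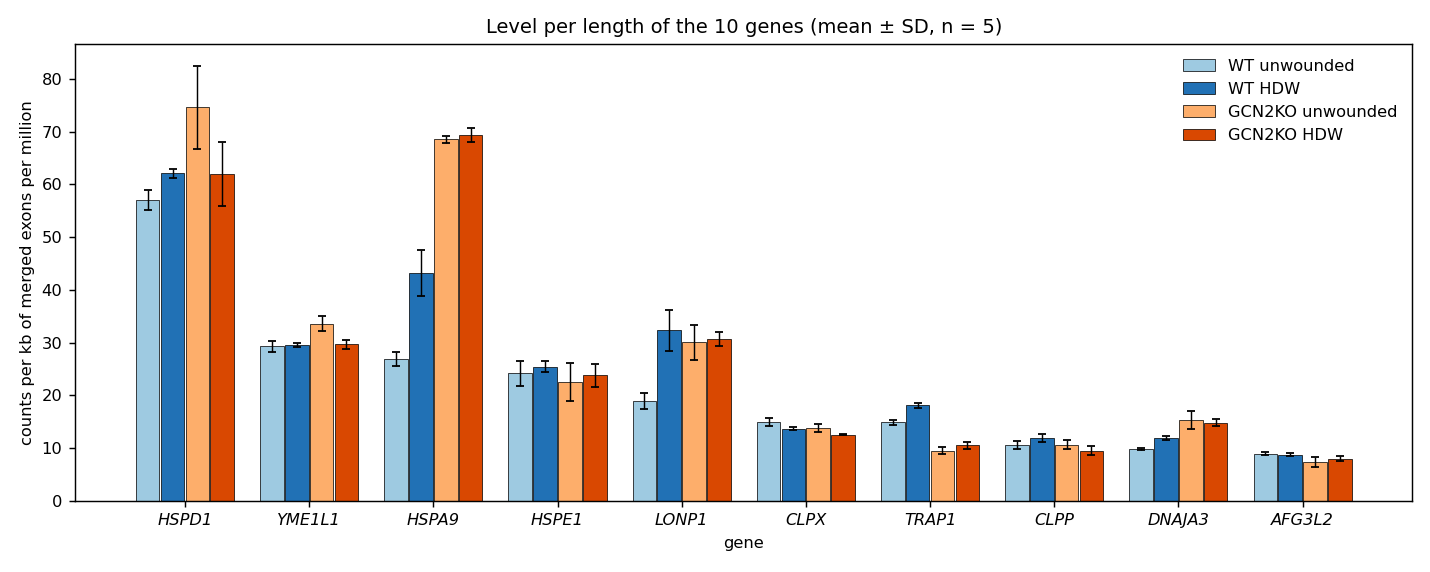
CPM per kilobase of merged exons for each gene (horizontal axis) in the 4 groups, as mean bars with SD over 5 cultures, on an axis from 0. HSPD1 is highest in WT unwounded cells at 57.1, and HSPA9 goes from 26.9 in WT unwounded to 68.6 in GCN2KO unwounded cells.

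Each pair of groups was tested across all genes with edgeR, and a gene is called higher or lower at an adjusted p of at most 0.05. A DE gene is called and also has a log2 fold change of 1 or more in either direction. Fold changes of counts are within 1 gene and need no length. Comparisons that use the same group, such as GCN2KO against WT unwounded and HDW against unwounded in WT, share its 5 libraries, so their values are given side by side and are not independent.

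In unwounded cells, 5 of the 10 genes were called higher in GCN2KO and 2 lower, where 33.4% of 15348 genes tested were higher and 33.1% lower. HSPA9 was the 1 DE gene among them, with 8.21% of all genes DE higher and 8.22% DE lower. The groups of 5 did not overlap for these 7 genes, and of all genes tested 26.2% were called higher without overlap and 26.9% called lower without it. The median log2 fold change of the 10 was 0.11, against 0.0042 over all genes.

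After HDW, 2 of the 10 were higher in GCN2KO than in WT (HSPA9 and DNAJA3) and 4 lower (TRAP1, CLPP, CLPX and AFG3L2), against 35.9% and 35.8% of 15855 genes. None was a DE gene, where 7.1% of all genes were DE higher and 7.83% DE lower. Their median was -0.08, against 0.002 over all genes.

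HDW raised 6 of the 10 in WT cells (HSPA9, LONP1, TRAP1, DNAJA3, CLPP and HSPD1) and lowered CLPX, where 26.1% of all genes rose and 25.2% fell. None reached the DE threshold, which 2.62% of all genes passed upward and 1.55% downward. Their median was 0.15, against -0.0024 over all genes. In GCN2KO cells HDW raised none and lowered 2, HSPD1 and YME1L1, where 11.9% of all genes rose and 10.8% fell. At the DE threshold these shares were 0.475% and 0.196%, and no member was among them. The members' median was -0.0053, against -0.0011. The difference between the changes after HDW in GCN2KO and in WT is the interaction term of a fit to the 20 libraries, in which a negative value means a smaller rise or a larger fall in GCN2KO. HSPA9, LONP1, DNAJA3, HSPD1, CLPP and YME1L1 had a negative interaction and none a positive one, where 12.5% of 16536 genes were negative and 11.2% positive. At a size of at least 1, 2.15% of all genes were negative and 1.16% positive, and no member was. The median interaction of the 10 was -0.26, against -0.009 over all genes.

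**Figure D2:**
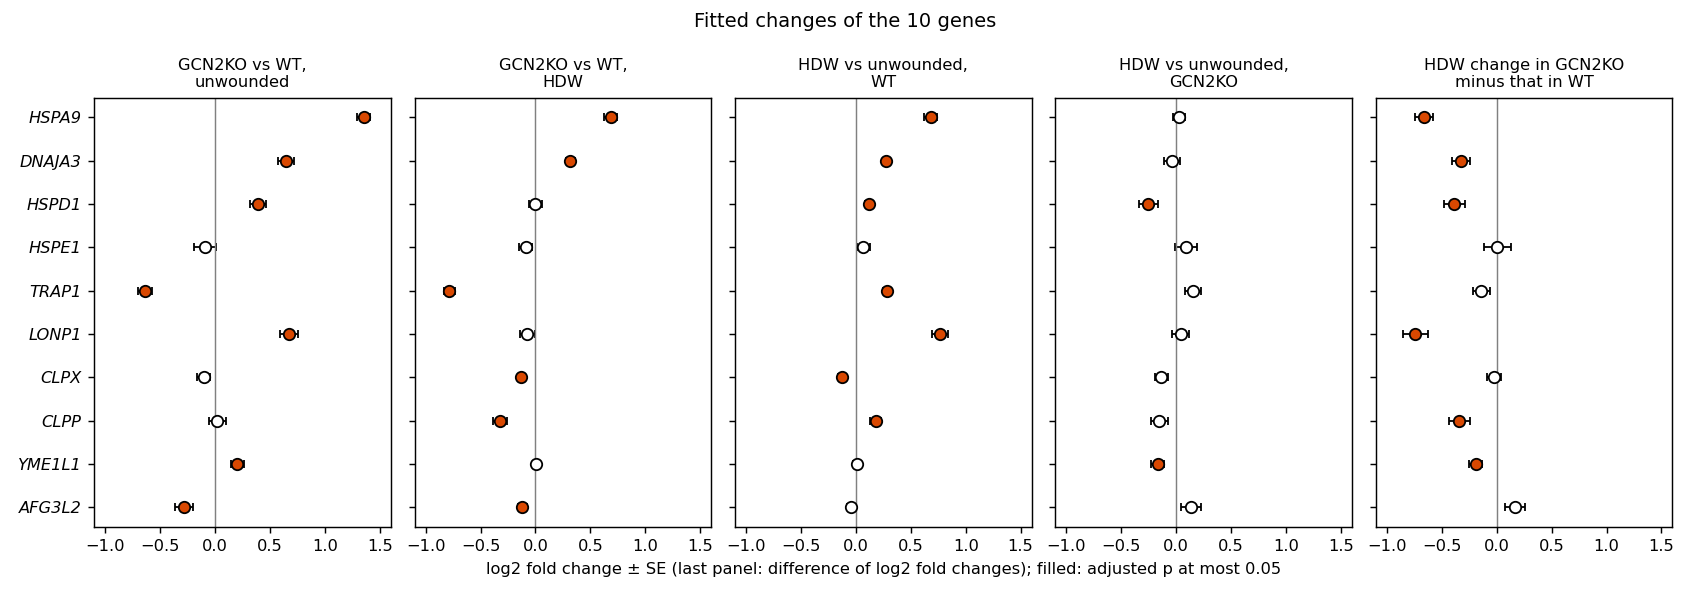
Log2 fold change ± SE of each gene (rows) in the 4 comparisons, and in the last panel the difference between the change after HDW in GCN2KO and in WT. Filled points have an edgeR adjusted p of at most 0.05. HSPA9 stands at 1.35 and TRAP1 at -0.64 in the first panel, and no point is filled to the right of 0 in the last panel.

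HSPA9, also called mortalin, is the Hsp70 of the matrix and the motor of protein import. The 5 WT unwounded cultures had 7142, 7788, 7148, 8004 and 7742 normalized read counts of it, and the 5 WT cultures after HDW 11105, 13986, 12786, 11400.2 and 11433. GCN2KO unwounded cultures had 19086, 19475, 19526, 19243 and 19139.8 counts of it, and GCN2KO HDW cultures 19321, 20154, 19552, 19248 and 19401. All WT HDW cultures lay above all WT unwounded ones, and all 10 GCN2KO cultures lay above all 10 WT cultures, while the 2 GCN2KO groups overlapped. The log2 fold change of HSPA9 in GCN2KO against WT was 1.35 (SE 0.061, adjusted p = 3.7e-11) unwounded and 0.69 (SE 0.059, adjusted p = 1.51e-07) after HDW. HDW raised it by 0.68 (SE 0.060, adjusted p = 2.08e-07) in WT and moved it by 0.03 (SE 0.054, adjusted p = 0.735) in GCN2KO. The interaction was -0.66 (SE 0.081, adjusted p = 2.6e-06). The SD between replicates was 1219 in WT HDW and 198 in GCN2KO unwounded cultures.

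DNAJA3, also called Tid1, is a J-domain protein that stimulates the ATPase of HSPA9. WT unwounded cultures had 1942, 2009, 1959, 2050.5 and 2023 normalized read counts of it and WT HDW cultures 2344, 2449, 2447, 2349 and 2515. GCN2KO unwounded cultures had 2938, 2719, 3485, 2973 and 3462, and GCN2KO HDW cultures 3051, 3155, 3115, 2832 and 2898. As for HSPA9, the WT groups did not overlap, both GCN2KO groups lay above both WT groups, and the GCN2KO groups overlapped each other. Its log2 fold change in GCN2KO against WT was 0.65 (SE 0.072, adjusted p = 8.45e-07) unwounded and 0.32 (SE 0.040, adjusted p = 7.57e-06) after HDW. HDW changed it by 0.27 (SE 0.032, adjusted p = 3.6e-06) in WT and by -0.04 (SE 0.074, adjusted p = 0.735) in GCN2KO, with an interaction of -0.33 (SE 0.084, adjusted p = 0.00595).

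**Figure D3:**
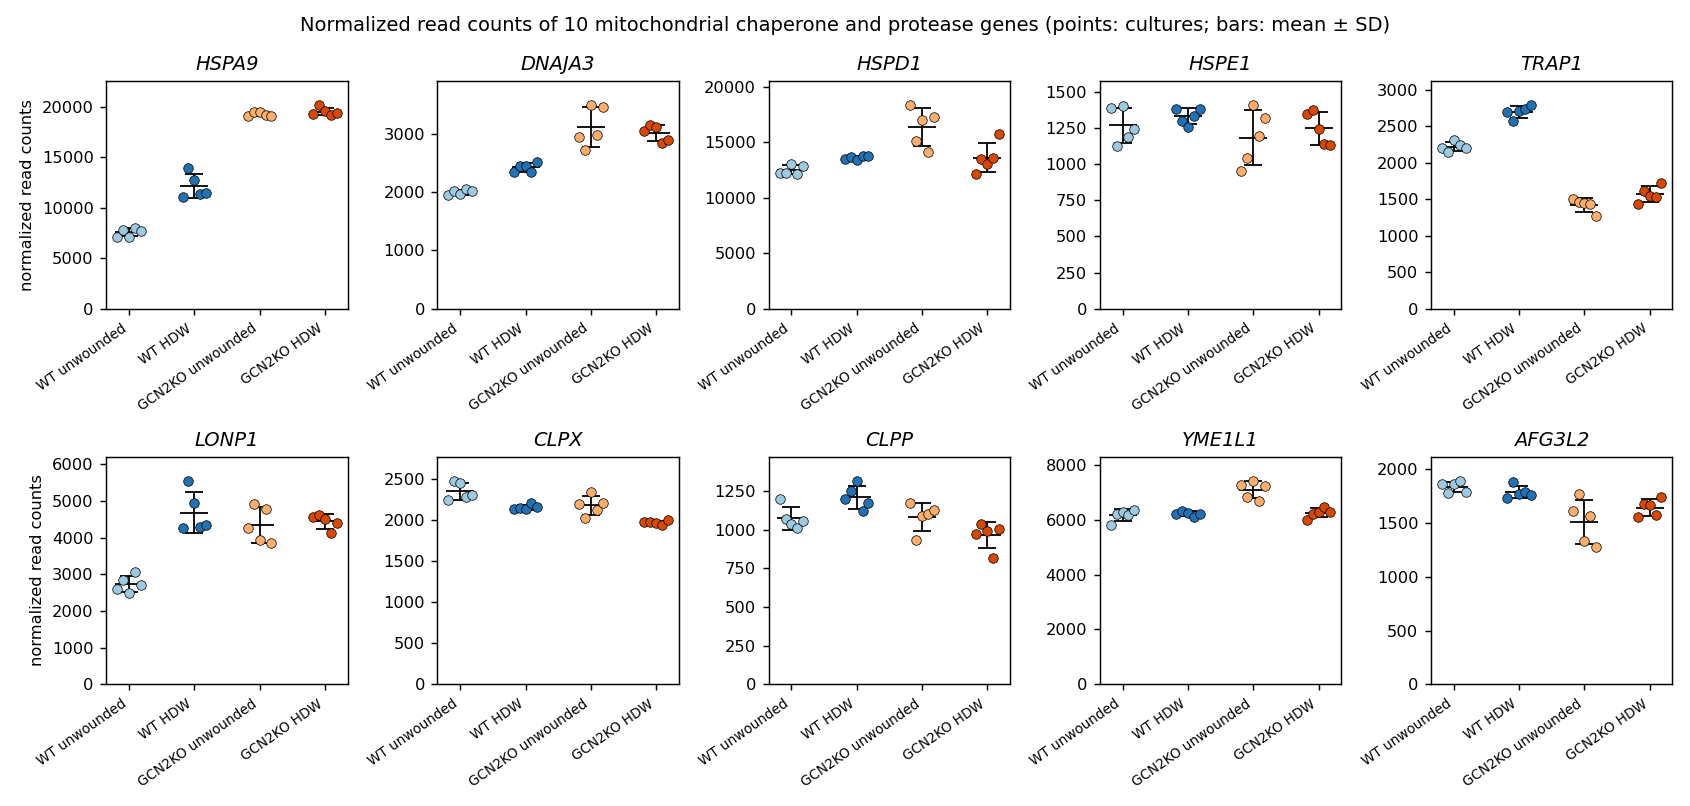
Normalized read counts (vertical axes from 0, 1 scale per gene) of the 10 genes in each of the 20 cultures, with the mean and SD of each group of 5. For HSPA9 and DNAJA3 all GCN2KO points lie above all WT points, for TRAP1 all lie below, and for LONP1 the WT unwounded points, at 2479 to 3062, lie below those of the other 3 groups.

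HSPD1 (Hsp60) forms the barrel of the mitochondrial chaperonin. WT cultures had 12206, 12267, 13060.4, 12187 and 12899 normalized read counts of it unwounded and 13473, 13679.6, 13392, 13807 and 13777 after HDW. In GCN2KO unwounded cultures it had 18335, 15120.1, 17056, 14094 and 17298, and in GCN2KO HDW cultures 12138, 13504, 13086, 13580.3 and 15764. GCN2KO unwounded cultures all lay above WT unwounded cultures, and the GCN2KO HDW cultures spread around those of WT HDW. Its log2 fold change in GCN2KO was 0.39 (SE 0.075, adjusted p = 0.000241) unwounded and -0.0011 (SE 0.057, adjusted p = 0.987) after HDW. HDW raised it by 0.12 (SE 0.031, adjusted p = 0.00514) in WT, a call that 1 fit over all 20 libraries did not make (adjusted p = 0.164). In GCN2KO it fell by 0.26 (SE 0.087, adjusted p = 0.0469), with overlapping groups, and this call was lost in 7 of the 10 fits that left out 1 library (GCN2KO unwounded replicate 1, 3 or 5, or GCN2KO HDW replicate 1, 2, 3 or 4, adjusted p = 0.0789 to 0.113). The interaction was -0.39 (SE 0.095, adjusted p = 0.00433).

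HSPE1 (Hsp10) is the lid of that chaperonin. WT cultures had 1270 ± 123 (SD, n = 5) counts unwounded and 1333 ± 55.5 after HDW, GCN2KO cultures 1185 ± 189 and 1250.0 ± 114, and every pair of groups overlapped. It passed no test. The log2 fold changes were -0.09 (SE 0.100, adjusted p = 0.433) for GCN2KO unwounded, -0.09 (SE 0.059, adjusted p = 0.188) after HDW, 0.07 (SE 0.057, adjusted p = 0.331) for HDW in WT and 0.09 (SE 0.101, adjusted p = 0.561) in GCN2KO, and the interaction was 0.0042 (SE 0.124, adjusted p = 0.988). The ratio of HSPD1 to HSPE1 counts was 8.77 to 10.9 in WT cultures unwounded and 9.71 to 10.6 after HDW, and 11.8 to 19.3 and 8.98 to 13.9 in GCN2KO cultures. The GCN2KO unwounded ratios thus lay above every WT ratio. A ratio of counts includes the lengths of the transcripts, 2245 bases for canonical HSPD1 and 557 for HSPE1. It can be compared between groups but does not give their relative levels. Per canonical length, HSPD1 stood at 194 and HSPE1 at 79.3 in WT unwounded cells.

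Reads of this pair are partly ambiguous. Of the canonical HSPE1 transcript, 34.47% of bases also belong to the readthrough gene HSPE1-MOB4, which had at most 5.75 normalized read counts in any library, and 31.5% of its 50-base windows occur in annotated pseudogenes. For HSPD1 that share is 27.14%. How the counting treated such reads is not given in the sources used here, beyond the use of uniquely mapped reads. The part of lost reads in the HSPE1 count was not tested. Adding the counts of the 18 annotated HSPD1 pseudogenes or the 26 of HSPE1 changed no call. The HSPD1 pseudogenes made up 0.999% to 1.324% of the sum and the HSPE1 pseudogenes 0.427% to 2.105%.

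TRAP1 is the Hsp90 of mitochondria, and it was the member that fell most in GCN2KO. WT cultures had 2196, 2139, 2308, 2237 and 2195 normalized read counts of it unwounded and 2694, 2565, 2705, 2731 and 2784 after HDW. In GCN2KO unwounded cultures it had 1501, 1456, 1449.8, 1426 and 1266, and in GCN2KO HDW cultures 1427, 1610.4, 1547, 1525 and 1719. Every GCN2KO culture lay below every WT culture, the WT groups did not overlap and the GCN2KO groups did. Its log2 fold change in GCN2KO was -0.64 (SE 0.062, adjusted p = 1.64e-07) unwounded and -0.78 (SE 0.048, adjusted p = 6.39e-09) after HDW. HDW changed TRAP1 by 0.28 (SE 0.033, adjusted p = 3.81e-06) in WT and by 0.15 (SE 0.070, adjusted p = 0.122) in GCN2KO. The difference between those changes, -0.14 (SE 0.075, adjusted p = 0.183), did not pass. TRAP1 shares 38.96% of its canonical transcript with DNASE1 on the opposite strand, and whether reads were counted by strand is not given in the sources used here. DNASE1 had 277 to 325 counts in WT and 469 to 509.9 in GCN2KO cultures after HDW, and it was higher in GCN2KO after HDW by 0.70 (SE 0.059, adjusted p = 1.25e-07), opposite to TRAP1.

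LONP1 is the matrix protease that removes misfolded and oxidized proteins. WT cultures had 2595, 2849.5, 2479, 3062 and 2716 normalized read counts of it unwounded and 4267, 5546, 4945, 4285 and 4355 after HDW. GCN2KO unwounded cultures had 4267, 4920.5, 3939, 4783 and 3843, and GCN2KO HDW cultures 4557, 4611, 4523, 4128 and 4399.5. WT unwounded cultures were the lowest 5, and the other 3 groups overlapped one another. LONP1 was higher in GCN2KO unwounded by 0.67 (SE 0.083, adjusted p = 2.64e-06), and after HDW the log2 fold change was -0.07 (SE 0.069, adjusted p = 0.348). HDW raised it by 0.77 (SE 0.074, adjusted p = 5.23e-07) in WT and moved it by 0.04 (SE 0.078, adjusted p = 0.734) in GCN2KO. Its interaction, -0.74 (SE 0.111, adjusted p = 3.58e-05), was the largest in size of the 10 genes.

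CLPX unfolds substrates and feeds them to the peptidase CLPP. CLPX ranged over 2238 to 2473 normalized read counts in WT cultures unwounded and 2129.5 to 2206 after HDW, and over 2019 to 2341 and 1936 to 1997 in GCN2KO cultures. After HDW each genotype lay below its unwounded group without overlap. It fell after HDW in WT by 0.13 on the log2 scale (SE 0.034, adjusted p = 0.00589), and the value in GCN2KO was -0.14 (SE 0.056, adjusted p = 0.0938), which passed without GCN2KO unwounded replicate 2 (adjusted p = 0.0468), and with DESeq2 (0.0304), all 20 libraries in 1 fit (0.0155) or thinning to the smallest library (0.0456). The interaction was -0.02 (SE 0.064, adjusted p = 0.843). In GCN2KO against WT it was lower after HDW, by -0.13 (SE 0.032, adjusted p = 0.00247), and the unwounded value was -0.10 (SE 0.060, adjusted p = 0.142), which passed with library size alone (0.0386) or all 20 libraries (0.0408).

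CLPP ranged over 1007 to 1198 counts in WT cultures unwounded and 1118 to 1313 after HDW, and over 932 to 1169 and 816 to 1039 in GCN2KO cultures. After HDW every GCN2KO culture lay below every WT culture, with a log2 fold change of -0.32 (SE 0.063, adjusted p = 0.000368), and unwounded it was 0.02 (SE 0.073, adjusted p = 0.801). HDW raised CLPP by 0.18 (SE 0.053, adjusted p = 0.0108) in WT, with overlapping groups, and the value in GCN2KO was -0.15 (SE 0.079, adjusted p = 0.163). The interaction was -0.34 (SE 0.097, adjusted p = 0.0122).

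YME1L1 and AFG3L2 are AAA proteases of the inner membrane, the former facing the intermembrane space and the latter the matrix. YME1L1 ranged over 5829 to 6378 counts in WT cultures unwounded and 6106 to 6336 after HDW, and over 6705 to 7417 and 6009 to 6483 in GCN2KO cultures. The GCN2KO unwounded group stood above the other 3 groups, which overlapped. Its log2 fold change in GCN2KO was 0.20 (SE 0.058, adjusted p = 0.00558) unwounded and 0.0068 (SE 0.034, adjusted p = 0.863) after HDW. HDW moved it by 0.0082 (SE 0.031, adjusted p = 0.848) in WT and lowered it by -0.17 (SE 0.057, adjusted p = 0.043) in GCN2KO, with an interaction of -0.19 (SE 0.062, adjusted p = 0.0263). The last 2 calls depended on single libraries and on the processing. Without WT unwounded replicate 1 the interaction had an adjusted p of 0.0543, and without GCN2KO HDW replicate 1 one of 0.0501. With library size alone it had 0.123 and without the filter 0.183. The fall in GCN2KO kept its call in 2 of the 10 fits without 1 library, those without GCN2KO unwounded replicate 2 or 4. Without GCN2KO unwounded replicate 1, 3 or 5, or any one GCN2KO HDW library, its adjusted p was 0.0547 to 0.107. With library size alone, no filter, the replicate block or thinning to the smallest library, it was 0.0517 to 0.137.

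AFG3L2 ranged over 1781 to 1892 counts in WT cultures unwounded and 1733 to 1883 after HDW, and over 1277 to 1770.4 and 1556 to 1746 in GCN2KO cultures. It was lower in GCN2KO by -0.28 (SE 0.083, adjusted p = 0.00714) unwounded and -0.12 (SE 0.042, adjusted p = 0.0202) after HDW. The call after HDW was lost without GCN2KO HDW replicate 1 (adjusted p = 0.0554) or replicate 4 (0.0513). It was also lost with library size alone (0.0928) or all 20 libraries in 1 fit (0.114). HDW moved AFG3L2 by -0.04 (SE 0.034, adjusted p = 0.313) in WT and 0.13 (SE 0.088, adjusted p = 0.275) in GCN2KO, and the interaction was 0.17 (SE 0.094, adjusted p = 0.212), or 0.23 (adjusted p = 0.0474) without GCN2KO unwounded replicate 2. AFG3L2 shares 23.86% of its canonical transcript with TUBB6 on the opposite strand, whose log2 fold change in GCN2KO unwounded was 0.15 (SE 0.074, adjusted p = 0.0835).

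Genes of chromosome 5, which holds HSPA9, were higher overall in GCN2KO cells. Unwounded, the median log2 fold change of the other 694 tested genes of that chromosome was 0.35 (quartiles -0.09 and 0.73), 55.9% of them were called higher and 16.9% lower. HSPA9 at 1.35 lay above most of them, with 51 of the 694 (7.35%) above it. Of the 14653 genes of other chromosomes, 4.61% lay above it. The median was 0.36 over 575 genes of the long arm, where HSPA9 lies, 0.25 over 119 of the short arm and 0.24 over 108 genes within 5 Mb. After HDW the chromosome's median was 0.36 over 720 genes, and 27.1% of them lay above HSPA9 at 0.69. Scaled by chromosome 5 genes alone, HSPA9 was higher in GCN2KO by 1.02 (SE 0.062, adjusted p = 5.82e-10) unwounded and 0.33 (SE 0.059, adjusted p = 0.000144) after HDW. HDW itself moved chromosome 5 genes by a median of -0.03 in WT, and HSPA9's rise there was 0.70 (SE 0.062, adjusted p = 2.4e-07) on that scale. For the other members the median of their own chromosome lay between -0.08 and 0.03 in unwounded cells.

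**Figure D4:**
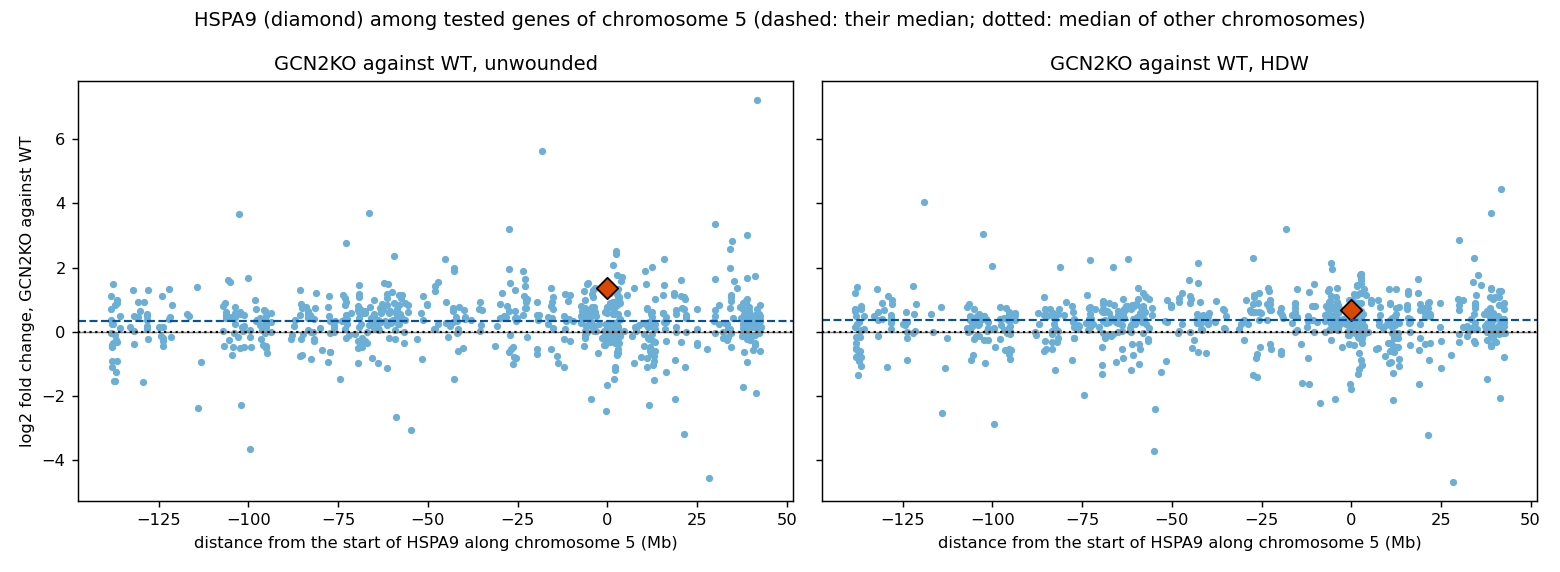
Log2 fold change of GCN2KO against WT (vertical axis) for HSPA9 (diamond) and the other tested genes of chromosome 5 by distance from its start in Mb, unwounded (left) and after HDW (right). The dashed line is their median, 0.35 and 0.36, the dotted line the median of other chromosomes, and HSPA9 stands at 1.35 and 0.69.

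Across the 20 libraries the members did not form 1 pattern. As a description, Pearson's r of log2 CPM was 0.951 for HSPA9 with DNAJA3, 0.881 for HSPD1 with YME1L1 and 0.782 for HSPA9 with LONP1, and -0.808 for AFG3L2 with DNAJA3. These values mix differences between groups with those within them. Over deviations from the group means, AFG3L2 with DNAJA3 had -0.765, HSPA9 with LONP1 0.762 and HSPD1 with YME1L1 0.68, while HSPA9 with DNAJA3 had 0.21. These deviations include a split among the GCN2KO unwounded replicates, described with the processing below. HSPD1 with HSPE1 had -0.34 and -0.169. The libraries of a group share handling, and these values were not tested.

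Of 16536 genes, those most like HSPA9 over the 20 libraries were GFPT1 (r = 0.996), MGAT4A (0.991) and TARS1 (0.991, also on chromosome 5). DNAJA3 was most like NDUFAF2 (0.98, on chromosome 5), SRPRB (0.975) and ELOVL4 (0.975), and TRAP1 most like RRP7A (0.994), FBL (0.989) and ACLY (0.987). LONP1 was nearest to DSCAM (0.965), RPS6KA2 (0.961) and GPT2 (0.955), and HSPD1 to S100P (0.925), GPX8 (0.914, on chromosome 5) and CLDN7 (0.908). Nearest to YME1L1 were TCAIM, STAMBP and AZIN1 (0.932 to 0.937), and to AFG3L2 AP2B1, MARK2 and TRAF3IP1 (0.951 to 0.953). CLPX was most like NDUFB4, DYNC1I2 and ADH5 (0.929 to 0.932), CLPP like CST3, CHKB-DT and USF2 (0.882 to 0.902) and HSPE1 like POLH-AS1, SNRPD1 and TP53RK (0.811 to 0.854). HSPE1 and CLPP thus had the weakest nearest neighbours of the 10.

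Counts in the lists below stand beside the shares of all genes, which were 33.4% higher and 33.1% lower in GCN2KO unwounded, 35.9% and 35.8% after HDW, 26.1% raised and 25.2% lowered by HDW in WT, 11.9% and 10.8% in GCN2KO, and 12.5% with a negative and 11.2% with a positive interaction.

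Among 17 tested other mitochondrial chaperones and cochaperones, 6 were higher and 3 lower in GCN2KO unwounded (median 0.10), the former close to the share of 33.4% over all genes, and HDW raised 9 and lowered 1 in WT (median 0.15, with 26.1% and 25.2% over all genes) against 1 and 1 in GCN2KO (median -0.03). The 2 DE genes of the list in GCN2KO unwounded cells, where 8.21% of all genes tested were DE higher, are partners of HSPA9. Other partners in the list, such as GRPEL1, PAM16 and DNAJC19, were not DE genes there. GRPEL2, a nucleotide exchange factor of HSPA9, lies like it on chromosome 5, whose genes had a median of 0.35 in GCN2KO unwounded. GRPEL2 was higher in GCN2KO by 1.48 (SE 0.083, adjusted p = 3.42e-10) and rose after HDW in WT by 0.66 (SE 0.040, adjusted p = 4.44e-09). TIMM44, which tethers HSPA9 to the import channel, was higher by 1.23 (SE 0.061, adjusted p = 9.16e-11) and rose by 0.37 (SE 0.040, adjusted p = 1.64e-06). Their interactions were -0.61 (SE 0.094, adjusted p = 4.83e-05) and -0.54 (SE 0.065, adjusted p = 2.05e-06), among 5 of the 17 that were negative and 0 that were positive. HSCB, a cochaperone of iron-sulfur cluster assembly, fell after HDW in WT (-0.43, SE 0.066, adjusted p = 5.4e-05) and in GCN2KO (-0.74, SE 0.145, adjusted p = 0.00413). After HDW, 4 of the list were higher and 8 lower in GCN2KO than in WT (median -0.14), among the latter TIMM13 (-0.47) and TIMM9 (-0.41), small chaperones of the intermembrane space.

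Of the 16 other mitochondrial proteases and peptidases, 3 were higher and 7 lower in GCN2KO unwounded (median -0.16), and 5 were higher and 7 lower after HDW (median -0.07). SPG7, the partner of AFG3L2 in the matrix-facing protease, was lower by -0.81 (SE 0.072, adjusted p = 5.84e-08) unwounded and -0.49 (SE 0.042, adjusted p = 1.64e-07) after HDW, and LACTB was lower by -0.71 (SE 0.068, adjusted p = 1.51e-07) unwounded. IMMP1L, a subunit of the inner membrane peptidase, was higher by 1.08 (SE 0.133, adjusted p = 2.64e-06). HDW raised 1 and lowered 6 in WT (median -0.09), among them OMA1 at -0.66 (SE 0.067, adjusted p = 9.36e-07) and IMMP2L at -0.64 (SE 0.067, adjusted p = 1.21e-06), and it raised 1 and lowered 4 in GCN2KO (median -0.13). The interaction was positive for 4, among them SPG7 at 0.33 and NLN (on chromosome 5) at 0.37, and negative for PARL at -0.37.

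Of 8 scaffolds and partners of the AAA proteases, 2 were higher and 4 lower in GCN2KO unwounded. PHB2, which with PHB forms the ring around AFG3L2 complexes, was lower by -1.11 (SE 0.089, adjusted p = 1.94e-08) unwounded and -1.38 (SE 0.057, adjusted p = 2.88e-10) after HDW, a DE gene in both. STOML2, a scaffold of YME1L1, was higher by 0.43 (SE 0.105, adjusted p = 0.00201) unwounded, with an interaction of -0.45 (SE 0.130, adjusted p = 0.0139). Of 15 tested genes of the import channels, 5 were higher and 1 lower in GCN2KO unwounded (median 0.12), led by TIMM17A at 0.99 (SE 0.109, adjusted p = 7.2e-07) and TIMM23 at 0.73 (SE 0.086, adjusted p = 1.52e-06), which build the inner membrane channel. TOMM40, the outer membrane pore, rose after HDW in WT by 0.56 (SE 0.035, adjusted p = 6.18e-09) and in GCN2KO by 0.30 (SE 0.059, adjusted p = 0.00396), and its interaction was -0.27 (SE 0.066, adjusted p = 0.00431).

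Of 12 regulators linked to the UPRmt, 5 were higher and 3 lower in GCN2KO unwounded (median 0.17), near the shares of 33.4% and 33.1% over all genes. Normalized read counts of DDIT3 (CHOP) were 711 ± 209.8 (SD, n = 5) unwounded and 2089 ± 317 after HDW in WT, and 5138 ± 870.5 and 4304 ± 364 in GCN2KO cultures. ATF5 went the other way, with 1012 ± 70.05, 698 ± 26.7, 473 ± 44.9 and 474 ± 51.4 in the same order. ATF4 mRNA stood at 14723 ± 1110.0 and 18614 ± 359.5 in WT and at 21529 ± 1899 and 17881 ± 1114 in GCN2KO cultures. The order of the group means for DDIT3 was thus that of HSPA9 except between the GCN2KO groups, which overlapped for both genes. ATF5 had the reverse of the order of DDIT3 between the WT groups and between WT and GCN2KO, while its GCN2KO groups were alike. ATF4 had another order, with GCN2KO unwounded highest and GCN2KO HDW overlapping WT HDW. The log2 fold changes in GCN2KO unwounded were 2.85 (SE 0.171, adjusted p = 6.97e-10) for DDIT3, -1.0975 (SE 0.079, adjusted p = 5.2e-09) for ATF5 and 0.55 (SE 0.077, adjusted p = 9.84e-06) for ATF4. Their interactions were -1.80 (adjusted p = 8.72e-07), 0.54 (adjusted p = 0.000465) and -0.61 (adjusted p = 2.85e-05).

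Among the other regulators, SIRT7 was higher in GCN2KO by 0.84 (SE 0.064, adjusted p = 9.99e-09) unwounded, EIF2AK1 by 0.19 and HSF1, the heat shock factor, by 0.16, while ESR1 was lower by -0.65 (SE 0.073, adjusted p = 8.16e-07) and DELE1, which carries mitochondrial stress to EIF2AK1 and lies on chromosome 5, by -0.34 (SE 0.066, adjusted p = 0.000265). CEBPB (0.12), NRF1 (0.17), SIRT3 (-0.07) and JUN (0.21) did not pass in that comparison. HDW in WT raised DDIT3, ATF4, HSF1, CEBPB, NRF1 and JUN and lowered ATF5 and DELE1, a median of 0.16 over the 12. In GCN2KO it raised ESR1 and JUN and lowered ATF4, SIRT3 and EIF2AK1.

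Other targets of the UPRmt and of mitochondrial stress were also listed. Of 12 tested (FGF21 was too low, and SOD2 had no matched identifier), 8 were higher and 0 lower in GCN2KO unwounded, with a median of 0.82. DE genes made up 6 of the 8, where 8.21% of all genes tested were DE higher. TRIB3 (3.69, SE 0.186, adjusted p = 1.17e-10) and GDF15 (2.18, SE 0.131, adjusted p = 7.24e-10) led them. HDW raised 11 and lowered TXN2 in WT (median 0.70), with ASNS, asparagine synthetase, at 2.12 (SE 0.135, adjusted p = 6.7e-09) and SHMT2 at 0.51 (SE 0.037, adjusted p = 2.81e-08). In GCN2KO it raised 0 and lowered 5 (median -0.21), and the interaction was negative for 9 of 12 (median -0.84), with ASNS at -2.43 and TRIB3 at -2.79. After HDW, 3 were higher and 6 lower in GCN2KO than in WT (median -0.10). Most of the list are also known targets of the ISR, and several serve amino acid synthesis and not proteostasis.

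**Figure D5:**
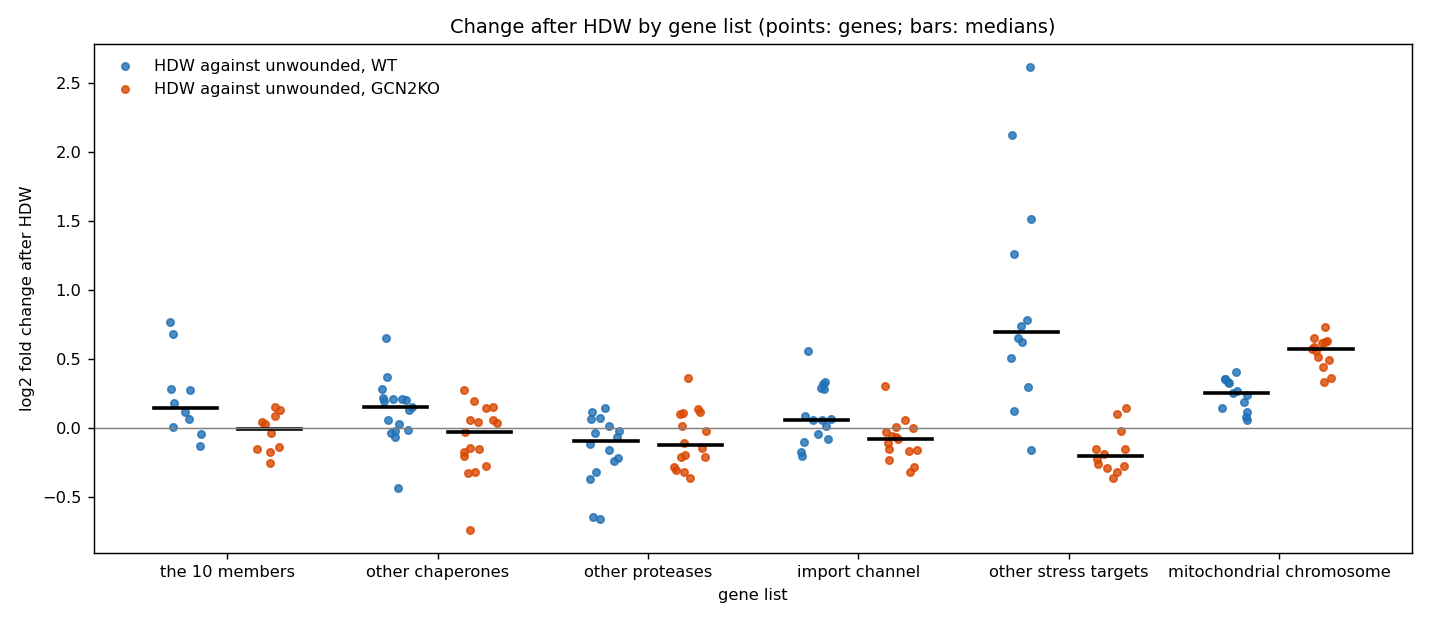
Log2 fold change after HDW (vertical axis) of each tested gene in 6 lists (horizontal axis), in WT (blue) and GCN2KO (orange) cells, with bars at the medians. The medians of the 10 members are 0.15 and -0.0053 and those of the stress targets 0.70 and -0.21, while all 13 genes of the mitochondrial chromosome lie above 0 in both genotypes.

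Of the 13 protein genes of the mitochondrial chromosome, HDW raised 11 in WT (median 0.25) and 13 in GCN2KO cells (median 0.57), with MT-ND2 at 0.41 and 0.73 (adjusted p = 5.16e-07 and 0.000424), and the interaction was positive for 8 and negative for 0. In unwounded cells 3 were higher and 4 lower in GCN2KO (median -0.12), among them MT-ND2 at 0.59 and MT-ND3 at -0.50. Among 22 tested nuclear genes of mitochondrial genome maintenance and content, 8 were higher and 3 lower in GCN2KO unwounded (median 0.06), and HDW raised 7 and lowered 4 in WT (median 0.01) and raised 6 and lowered 4 in GCN2KO (median -0.07). TFAM, which packages mitochondrial DNA, was lower in GCN2KO after HDW by -0.34 (SE 0.0385, adjusted p = 2.35e-06), and PPARGC1B, a coactivator of mitochondrial genes that lies on chromosome 5, was lower by -1.104 (SE 0.142, adjusted p = 4.01e-06) unwounded.

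A further list held 17 genes of other compartments, which apart from HSF1 and PSMD14 are homologs of the members. Of the 17, 9 were higher and 4 lower in GCN2KO unwounded (median 0.21) and 11 higher and 2 lower after HDW (median 0.18). The Hsp70 and Hsp90 of the endoplasmic reticulum led them. HSPA5 was higher by 2.30 (SE 0.145, adjusted p = 1.2e-09) and HSP90B1 by 1.51 (SE 0.119, adjusted p = 1.46e-08) unwounded, whereas cytosolic HSP90AB1 was lower by -0.48 (SE 0.071, adjusted p = 1.88e-05). HSPA5 rose after HDW in WT by 1.11 (SE 0.125, adjusted p = 2.7e-06) and had an interaction of -1.25 (SE 0.171, adjusted p = 1.16e-05). HDW raised 7 and lowered 4 of the 17 in WT and raised 2 and lowered 3 in GCN2KO, with DNAJA1, a cytosolic J protein, at -0.45 (SE 0.045, adjusted p = 7.81e-07) in WT.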

How the data were processed

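RNA from 20 NTERT cultures was sequenced as read pairs. Per the paper's methods, the authors trimmed reads with Trimmomatic, aligned them to GRCh38 with STAR, used featureCounts to assign uniquely mapped reads to exons, and deposited raw counts per gene and library. Strand setting, annotation release and treatment of overlapping genes are not given in the sources used here. Of 57500 identifiers, 56410 were matched to GENCODE 44 for symbols, positions and lengths, and 1090 were not.

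The tests were quasi-likelihood F tests of edgeR 4.0.16 under R 4.3.3 (TMM normalization, filterByExpr with a minimum count of 10 and total of 15), each pair on its 10 libraries and the interaction on all 20. p-values were Benjamini-Hochberg adjusted over all genes tested. The SE is the size of the log2 fold change divided by the square root of F. Normalized read counts are counts divided by TMM library sizes relative to their mean. Libraries held 14083504 to 34611570 counts, with a median of 32243580. No 2 libraries of a group agreed within sampling noise (chi-square per degree of freedom at least 2.41). In GCN2KO unwounded this value was 6.76 for replicates 2 and 4 and 8.44 for replicates 3 and 5. Between those pairs it was 41.2 to 49.4. Most members' values followed this split. LONP1 (4920.5 and 4783) and AFG3L2 (1770.4 and 1569) were higher in replicates 2 and 4 than in 3 and 5 (3939 and 3843, 1336 and 1277). HSPD1, DNAJA3, YME1L1, CLPX and HSPE1 were lower in replicates 2 and 4 than in 3 and 5. For HSPA9, CLPP and TRAP1 the pairs overlapped. The part of this split in the SDs, the calls and the r values was not tested.

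The 10 genes, the lists and the alternatives were chosen with earlier results of these data known. Named are all members, EIF2AK4, from each list in each comparison up to 2 higher and 2 lower called genes of smallest adjusted p without overlap of groups, the listed regulators, overlapping genes and the 3 genes of highest r. Only some of the genes named by this rule are printed. Further list genes given as examples of a count were named after their values were seen. Replicate numbers did not pair the samples. Alternatives were DESeq2 1.42.0, its size factors, library size alone, TMM without chromosome 5, no filter, a filter on mean count (minimum 50), all 20 libraries, scaling by chromosome 5 alone, adding the counts of pseudogenes or of HSPE1-MOB4, the replicate block, thinning to the smallest library and leaving out each library. The pipeline was tested on simulated data. Figures used matplotlib 3.10.9.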

Additional observations from a re-analysis of the deposited data

Results flagged for a closer look

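For 6 of the 10 genes the change after HDW differed between genotypes by the interaction test of edgeR, given as the log2 change in GCN2KO minus that in WT. Over all 16536 genes, 12.5% had a negative and 11.2% a positive difference by this test. The differences were -0.66 (adjusted p = 2.6e-06) for HSPA9, -0.74 (adjusted p = 3.58e-05) for LONP1, -0.39 (adjusted p = 0.00433) for HSPD1, -0.33 (adjusted p = 0.00595) for DNAJA3, -0.34 (adjusted p = 0.0122) for CLPP and -0.19 (adjusted p = 0.0263) for YME1L1. The YME1L1 call was lost with library size alone (adjusted p = 0.123) and without the filter (0.183). HSPA9, LONP1, DNAJA3, HSPD1 and CLPP rose in WT. Of the 6, HSPD1 and YME1L1 fell in GCN2KO, and the other 4 passed no test there. The interaction uses both unwounded groups, so a higher unwounded level in GCN2KO, as in HSPA9, LONP1, DNAJA3, HSPD1 and YME1L1, enters it. Over 40 groups of 5 cultures of the 10 genes, no single culture stood apart by the test for outlying values.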

How the results depend on the processing

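Over 1065 refits of the members' log2 fold changes, 1027 kept their side of the threshold, 30 lost a call, 8 gained one and none turned a call around. Every call made for HSPA9, LONP1, TRAP1 and DNAJA3 held under every alternative run. The gained calls were CLPX in GCN2KO against WT unwounded and after HDW in GCN2KO, TRAP1 after HDW in GCN2KO and the AFG3L2 interaction. The lost calls lay in small changes: AFG3L2 in GCN2KO against WT after HDW, HSPD1 after HDW in WT, HSPD1 and YME1L1 after HDW in GCN2KO, and the YME1L1 interaction. In GCN2KO the number of members lowered by HDW, 2 in the fit reported, was 0 with library size alone, 1 without the filter and 0 with the replicate block, 3 with DESeq2 and 3 with all 20 libraries in 1 fit, where CLPX was added, and 0 to 3 without 1 library. The number raised there was 1, TRAP1, with all 20 libraries in 1 fit, and 0 to 0 without 1 library. Positive interactions numbered 0 to 1 without 1 library, the 1 being AFG3L2 without GCN2KO unwounded replicate 2 (0.23, adjusted p = 0.0474). With the replicate number as a block no call changed other than those of HSPD1 (adjusted p = 0.0898) and YME1L1 (0.136) after HDW in GCN2KO, and same-numbered samples correlated by -0.2989 to 0.1181. In GCN2KO against WT after HDW, HSPA9 went from 0.69 to 0.33 when scaled by chromosome 5 genes alone. All 40 levels per length moved with the canonical length, and with library size alone HSPD1 in WT HDW moved to 61.2 and YME1L1 there to 29.1. The smallest library held 14083504 counts, a WT unwounded one.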
